A study of Mus musculus with 2 samples.

Results

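Translation initiation factors are the proteins that bring the ribosome, the initiator tRNA and an mRNA together at the start codon. The genes described here are the 56 rows of the count matrix, of 51868 in all, whose symbol begins with Eif and a digit, without the pseudogene rows marked -ps. The rule uses the symbol alone. Of these genes, 52 lie on autosomes, 3 on the X chromosome and 1 on the Y chromosome. *Eif2c5* meets the naming rule but carries a former name of the Argonaute family, and was put in no group of factors.

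The factors act in a fixed order. eIF2 carries the initiator tRNA to the small ribosomal subunit, together with eIF1, eIF1A, eIF3 and eIF5, and is recharged with GTP by eIF2B. Kinases that phosphorylate the alpha subunit of eIF2 block this recharging. The mRNA is brought in by the cap-binding protein eIF4E, the scaffold eIF4G and the helicase eIF4A, and small eIF4E-binding proteins keep eIF4E from eIF4G. eIF5B joins the large subunit, and eIF6 keeps free large subunits apart from small ones. In the testis, many mRNAs made in round spermatids are stored and translated only during elongation, and genes on the X chromosome are silenced during meiosis.

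The testes of 2 wild-type C57Bl/6J males, littermates of 8 weeks of age, were dissociated, strained to reduce the somatic cells, and measured in 1 droplet library per mouse. No treatment, transgene or sorting was used, so the mice are replicates of 1 group and the comparisons are between cell types. The matrix holds 57752829 UMIs (individually tagged RNA molecules) in 2552 cells, 1237 cells with 27450497 UMIs from mouse 1 and 1315 cells with 30302332 UMIs from mouse 2. No barcode was shared between the libraries.

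Cells were clustered without the initiation factor rows and named from marker lists, so the names are rebuilt and can differ from those of the study. The germ cells fell into 4 classes, called early, pachytene, round and elongating cells in what follows, which are early spermatocyte-like cells (preleptotene to zygotene; 53 cells in mouse 1 and 111 in mouse 2), pachytene or later spermatocyte-like cells (307 and 219), round spermatid-like cells (188 and 259) and elongating or condensing spermatid-like cells (284 and 230). The early, pachytene and elongating marker lists were each highest in their own class, whereas the summed level of the round list was 5617 and 5827 in its own class, 7631 and 8363 in *Hemgn*-led and 7206 and 7514 in elongating cells. A cluster led by *Ssxb1* (310 and 380 cells) scored 0.37 with the pachytene and 0.36 with the round list, and a cluster led by *Hemgn* (86 and 107 cells) scored 0.782 with the round and 0.77 with the elongating list. Both were kept apart and are described beside the named classes, but they enter no comparison. As alternatives, both were counted with their best class (*Ssxb1*-led with pachytene or later, *Hemgn*-led with round) or both with their second class (*Ssxb1*-led with round, *Hemgn*-led with elongating or condensing). The remaining clusters held 7 Sertoli-like, 6 spermatogonium-like and 5 Leydig-like cells.

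UMIs were summed per mouse and class, and levels are given as scaled CPM, that is CPM (UMIs in relation to the total of the sum) after correction of the total by a TMM factor. Each molecule is counted once at its 3' end, so these values are not divided by length. The correction was large in elongating cells, whose TMM factors were 0.529 and 0.551, against 0.856 to 1.37 in the other classes. The 14 genes of the elongating marker list, with the protamines and transition proteins, took 21.1% and 18.5% of all UMIs in elongating cells. The same 14 genes took 0.850% and 0.568% of the UMIs in early cells. How much of the correction goes back to these genes was not tested. The part of RNA from other cells in the lowest levels given here was not tested.

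The 56 genes together received 537267 UMIs, or 0.930% of all. Among the 4 classes compared, their share was highest in early cells, at 1.32% in mouse 1 and 1.30% in mouse 2. It was 1.03% and 1.06% in pachytene cells, 0.737% and 0.744% in round cells, and 0.957% and 1.02% in elongating cells. The values of the mice did not overlap between any of these 4 classes, although pachytene and elongating cells lay close together. The higher share in elongating than in round cells was not common to all groups. The eIF1 and eIF1A group went from 0.154% and 0.149% to 0.461% and 0.47%, and the eIF4A and eIF4E groups were also higher. The eIF3 group went from 0.253% and 0.258% to 0.148% and 0.153%, and the eIF2, eIF2B, kinase, eIF4G and eIF5 groups were also lower. In scaled CPM, where the totals carry the TMM factor, the sum of the 56 genes was instead highest in elongating cells, at 18093 and 18500. It was 11496 and 11663 in early, 8976 and 9099 in pachytene and 6181 and 6313 in round cells. Which class was highest thus depends on the scaling. Counted per cell, the order of the classes was different again. Early cells held 272 and 284 initiation factor UMIs per cell, pachytene cells 351 and 362, round cells 167 and 174, and elongating cells 121 and 139.

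**Figure D1:**
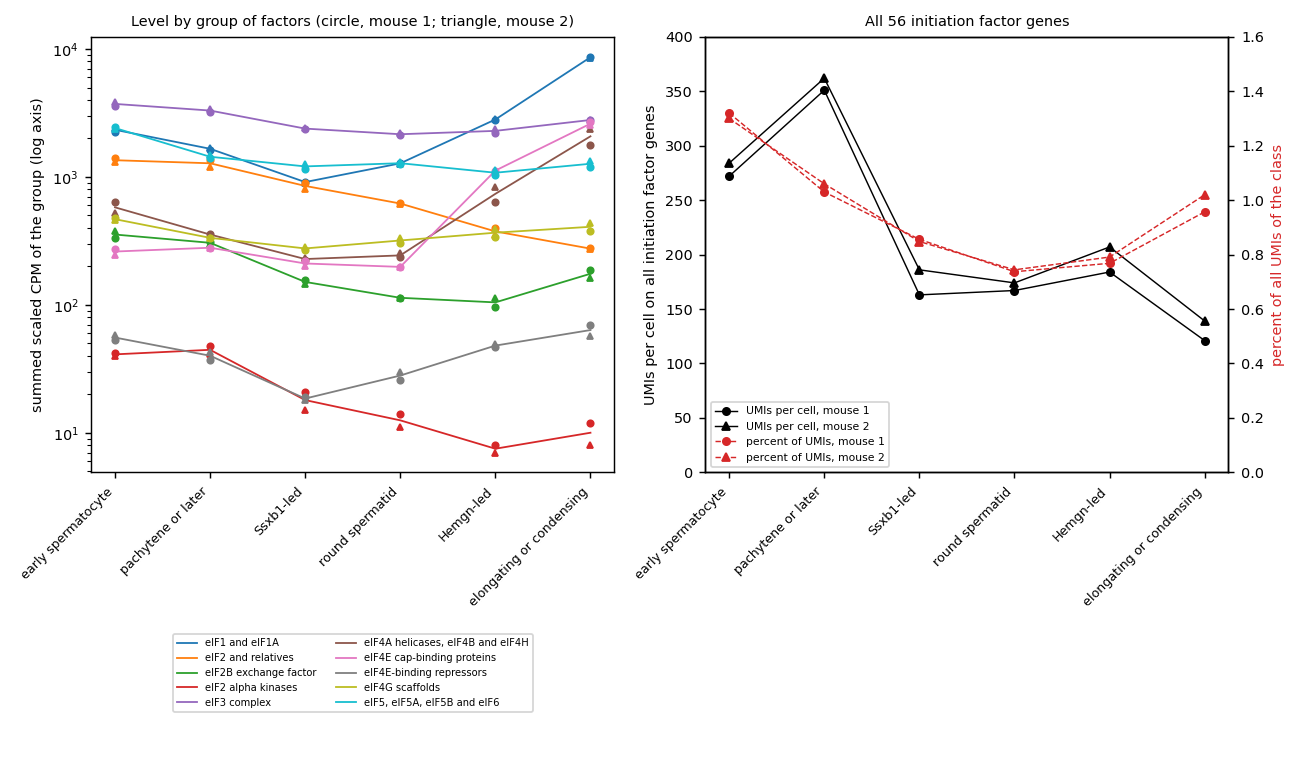
Left, summed scaled CPM (log axis) of each of 10 groups of initiation factors in 6 germ cell classes, with a circle for mouse 1, a triangle for mouse 2 and a line through their mean. Right, UMIs per cell on all 56 genes (black, left axis) and their percent of all UMIs (red, right axis); the share was 1.32% and 1.30% in early cells and 0.737% and 0.744% in round cells.

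Of the 56 genes, 50 had at least 100 UMIs and 51 passed the filter on low counts and were tested. *Eif4e1b* and *Eif2c5* had no UMI in any cell, which at this depth allows a level of up to 0.0519 CPM (3 counts of the total, for counting error only). *Eif2ak3* had 2 UMIs, *Eif4ebp3* had 1, and *Eif2s3x* had 41.

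Each class was compared with the preceding one by edgeR's quasi-likelihood test on the sums of both mice, with Benjamini-Hochberg adjustment over the 14144 rows tested. Between pachytene and early cells, 3 of 51 initiation factor genes were higher and 21 lower, where 19.3% of all rows tested were higher and 32.4% lower. With the mouse as a block, which is possible since each mouse gave a sum of every class, the counts were 6 and 24. Of all rows, 21.0% were higher and 34.7% lower with the block. Without the early cells of mouse 2, which left 1 sum in that class, fewer initiation factor genes were called lower. The share of all rows called was not computed for that fit. Counting the unplaced clusters with their second class gave 5 higher (19.9% of all rows). With TMM factors from all rows tested the split was 9 higher and 13 lower of 51, against 25.5% and 24.5% of all rows. With a log2 fold change of at least 1 as a further condition, 2 genes were higher (12.5% of all rows) and 10 lower (22.7%). The median log2 fold change was -0.32 for the initiation factor genes and -0.28 for all rows.

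Between round and pachytene cells, 9 genes were higher and 36 lower, where 33.7% of all rows were called higher and 46.6% lower. With the fold condition these were 7 (30.2% of all rows) and 17 (35.6%). The median was -0.73 against -0.45 for all rows, and with DESeq2, whose scaling raised the median of all rows to 0.01, it was -0.27 with 11 genes higher (31.9% of 18453 rows with an adjusted p) and 23 lower (23.6%). Counting the unplaced clusters with their best class gave 15 higher (35.2% of all rows). Between elongating and round cells, 22 genes were higher and 11 lower after scaling, but 8 higher and 33 lower where only the total count was used. Of all rows, 27.0% were called higher and 31.1% lower in the scaled comparison, and 12.9% and 55.5% with only the total count. With the fold condition 15 genes were higher (21.4% of all rows) and 6 lower (25.8%). The median of the initiation factor genes was 0.29 against -0.15 for all rows with scaling, and -0.84 against -1.26 without it. Every called gene that could be compared within each mouse moved in the same direction in both, which were 24, 44 and 33 genes in the 3 comparisons. Since the calls were made on these same mice, a gene with opposite directions could hardly be called, and this agreement is no separate test. Of the 102 calls in the 3 comparisons, 43 moved by over 1.5-fold with both unplaced clusters in their best or in their second class, so the order of the genes by size depends on where these cells are put. The number of mice, 2 per class, limits the precision of all of these tests.

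**Figure D2:**
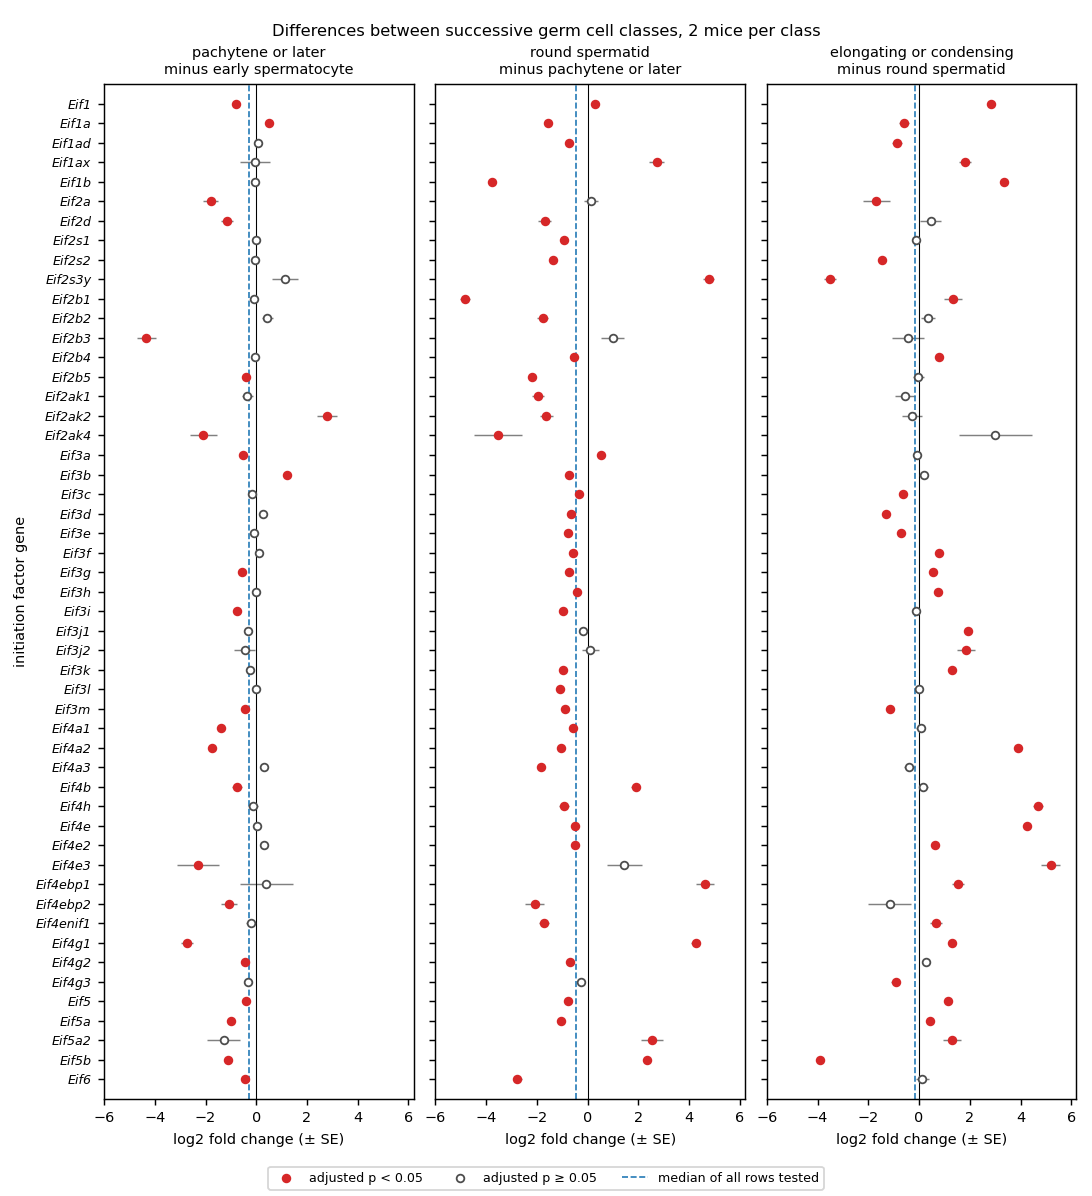
Log2 fold changes (horizontal axis, ± SE) of the 51 tested genes between successive germ cell classes, 2 mice per class. Red points passed an adjusted p of 0.05 in edgeR and open points did not, and the dashed line is the median of all rows tested. In the right panel 22 red points lie above 0 (27.0% of all rows) and 11 below it (31.1%). Without the TMM factor this split becomes 8 (12.9% of all rows) and 33 (55.5%).

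The class in which a gene was highest was read from the mean scaled CPM of both mice, and was not recomputed without the TMM factor. The number highest in elongating cells depends on that factor. Without it *Eif2b4*, *Eif3f*, *Eif3h* and *Eif4e2*, counted there, were lower in elongating than in round cells (-0.37, -0.35, -0.38 and -0.51). Others, such as *Eif1* (1.68) and *Eif4e* (3.13), were still higher. Of 50 genes with at least 100 UMIs, 23 were highest in early cells, 14 in elongating cells and 8 in pachytene cells. The corresponding shares were 46.0%, 28.0% and 16.0%, against 32.1%, 18.8% and 21.0% of the 12495 rows with as many UMIs. *Eif5b* and *Eif2s3y* were highest in round cells (4% of the 50, against 10.1% of all rows). No gene was highest in the *Ssxb1*-led cluster, where 5.9% of all rows were. Between its highest and lowest class, a gene's level differed by a median of 6.94-fold for the 50 genes and 11.7-fold for all rows.

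**Figure D3:**
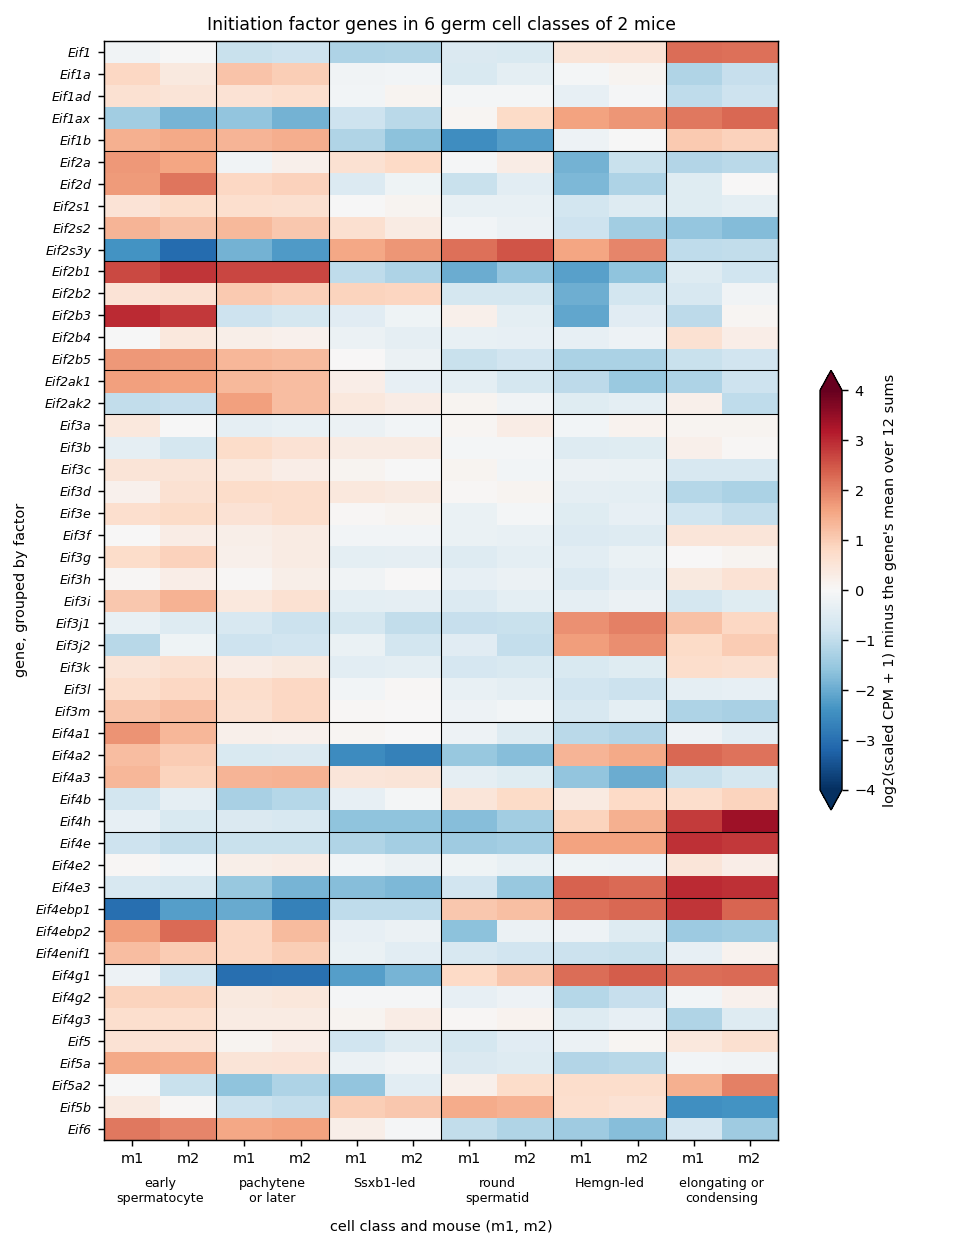
Log2(scaled CPM + 1) of the 50 genes with at least 100 UMIs, each less its own mean over the 12 sums, in 6 germ cell classes and 2 mice (m1, m2), with lines between groups of factors. The columns of both mice look alike in every class, *Eif2s3y* and *Eif5b* are highest in round cells, and *Eif4e*, *Eif4h* and *Eif1* are highest in elongating cells.

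The first pair is that of the gamma subunit of eIF2, the subunit that holds GTP and the initiator tRNA. It is encoded by *Eif2s3x* on the X chromosome (chrX:94188707-94212862, minus strand, GRCm38) and by its partner *Eif2s3y* on the Y chromosome (chrY:1010543-1028847, plus strand). The stretches from 250 bases before to 30 bases after their RefSeq starts (GRCm38.p6) are shown since both genes share a descent while only the Y-linked RNA was abundant. Capitals mark the GC box, GGGCGG on either strand, the letters bound by Sp1-type factors, and the X-linked stretch is read from the minus strand.
Eif2s3x, chrX:94212622-94212901: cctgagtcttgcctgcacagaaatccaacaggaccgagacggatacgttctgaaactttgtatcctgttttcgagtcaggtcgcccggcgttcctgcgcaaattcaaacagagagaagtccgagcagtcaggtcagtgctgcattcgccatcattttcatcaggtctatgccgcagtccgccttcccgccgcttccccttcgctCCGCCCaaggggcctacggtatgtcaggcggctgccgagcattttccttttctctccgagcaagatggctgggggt
Eif2s3y, chrY:1010345-1010624: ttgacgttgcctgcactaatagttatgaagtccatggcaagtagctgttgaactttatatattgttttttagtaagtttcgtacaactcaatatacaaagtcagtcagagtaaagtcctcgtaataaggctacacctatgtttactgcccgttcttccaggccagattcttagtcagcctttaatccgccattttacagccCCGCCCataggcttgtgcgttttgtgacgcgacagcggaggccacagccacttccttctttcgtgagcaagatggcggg
Of 250 aligned positions, 182 (72.8%) were identical, and each stretch held 1 GC box. GC boxes were found in 35.7% of 32851 mouse promoter stretches and in 40 of the 57 that belong to 44 of the initiation factor genes (70.2%). A match is a description of the letters only. The cyclic AMP response element TGACGTCA, present in 1.79% of all stretches, was in none of these 57.

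*Eif2s3y* received 3.83 and 2.75 scaled CPM in pachytene cells of mouse 1 and mouse 2, and 82.0 and 102 in round cells. It rose by 4.77 ± 0.21 (log2 ± SE; edgeR, adjusted p = 7.7e-14), the largest rise of any initiation factor gene in this comparison. The *Ssxb1*-led cluster already held 51.5 and 59.3, and with both unplaced clusters in their best class the rise was 1.69 and no longer the largest. In elongating cells *Eif2s3y* fell by 3.52 (adjusted p = 1.8e-10), to 7.87 and 8.08. The *Hemgn*-led cluster still held 52.4 and 68.9, and the change was -0.66 with both unplaced clusters in their second class. *Eif2s3x* stayed at or below 3.19 scaled CPM in all 12 sums, with 38 UMIs against 2592 for *Eif2s3y*, and was too low to be tested. The end of its mRNA has a near-identical copy in *Gm2223*, which received 0 UMIs, and reads that match both count for neither, so its level is uncertain. In round cells 99.0% and 99.6% of the UMIs of the pair belonged to the Y-linked gene. In early cells each gene had 6 UMIs, too few for a share.

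The alpha and beta subunits of eIF2, *Eif2s1* and *Eif2s2*, are autosomal and took another course. *Eif2s2* had the second most UMIs of the 56 rows, with 1113 and 987 scaled CPM in early and 1077 and 928 in pachytene cells. It then fell by 1.38 ± 0.16 (edgeR, adjusted p = 2e-07) in round and by 1.46 ± 0.17 (adjusted p = 4e-07) in elongating cells, where 148 and 132 remained. *Eif2s1* fell by 0.95 (adjusted p = 5.4e-07) between pachytene and round cells and had 132 in both mice there. Its further difference in elongating cells, -0.14, missed the threshold (adjusted p = 0.36), but was -1.28 and called without the TMM factor (adjusted p = 2.6e-08).

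*Eif2a* and *Eif2d*, which can deliver tRNA to the ribosome without eIF2, were low and highest in early cells. *Eif2a* fell from 18.3 and 16.3 there to 4.24 and 5.62 in pachytene cells (log2 change -1.80 ± 0.29, edgeR, adjusted p = 3.2e-05). It was also among the genes with the largest ratio between the mice in the same direction, 1.18 to 1.32 times higher in mouse 2 in the 2 classes where it had 100 UMIs.

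eIF2B, the exchange factor that recharges eIF2, has 5 subunits, *Eif2b1* to *Eif2b5*. Of these, 4 fell at the step to round cells (46.6% of all rows) and 2 at the step before it (32.4%). *Eif2b3*, of the catalytic part of the complex, was at 32.7 and 29.2 scaled CPM in early cells and at 1.41 and 1.61 in pachytene cells. This fall of 4.33 ± 0.37 (log2; edgeR, adjusted p = 1.2e-08) was the largest of any initiation factor gene in that comparison. *Eif2b1*, the alpha subunit, had 73.3 and 85.4 in early and 74.7 and 75.4 in pachytene cells, and fell by 4.84 ± 0.21 (adjusted p = 1e-13) to 1.97 and 3.08 in round cells. *Eif2b5*, the catalytic subunit, fell by 2.18 ± 0.15 (adjusted p = 6.9e-11) at the same step, and *Eif2b2* by 1.78 (adjusted p = 9.7e-08). The *Ssxb1*-led cluster held 4.84 and 4.08 for *Eif2b1*, 29.9 and 24.5 for *Eif2b5* and 37.8 and 37 for *Eif2b2*. With both unplaced clusters in their second class the changes of *Eif2b1*, *Eif2b5* and *Eif2b2* were -4.34, -1.69 and -0.58. *Eif2b4* differed least over the 6 classes, by 1.70-fold between a mean of 79.4 in round and 135 in elongating cells. In round cells the mean levels of the 5 subunits ran from 2.52 (*Eif2b1*) and 3.09 (*Eif2b3*) to 79.4 (*Eif2b4*), where in early cells they ran from 30.1 (*Eif2b2*) to 115 (*Eif2b4*). Between round and elongating cells *Eif2b1* and *Eif2b4* were higher. Without the TMM factor 4 of the 5 were lower (55.5% of all rows), *Eif2b4* by a log2 change of -0.37. These are counts of mRNA ends and not of protein.

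Of the 4 eIF2 alpha kinases, *Eif2ak1*, the kinase that senses haem, was highest in early cells, at 33.4 and 32.5 scaled CPM. It fell by 1.97 ± 0.23 (edgeR, adjusted p = 1.6e-07) between pachytene and round cells. *Eif2ak2*, known as PKR, which is activated by long RNA duplexes, had 2.39 and 2.59 in early and 20.1 and 14.9 in pachytene cells. It rose by 2.79 ± 0.40 (adjusted p = 8.1e-06) at this step, on 10 UMIs in the early class, and then fell by 1.63 ± 0.25 (adjusted p = 9e-06). *Eif2ak4*, known as GCN2, which senses uncharged tRNA, had 55 UMIs in the 6 classes and fell by 2.08 ± 0.53 (adjusted p = 0.00274) at the first step, a call lost with DESeq2 at a similar fold (-2.18, adjusted p = 0.051). All 3 tested kinases fell between pachytene and round cells, where 46.6% of all rows were called lower. Of them *Eif2ak4*, at -3.53, had 25 UMIs in pachytene and 1 in round cells, too few for a fold. It again did not pass with DESeq2 (-3.37, adjusted p = 0.068). *Eif2ak3*, known as PERK, the kinase of the endoplasmic reticulum, had no UMI in the 6 classes. None of the 3 tested kinases passed the threshold between round and elongating cells with the TMM factor. Without it *Eif2ak1* (-1.69, adjusted p = 0.00065) and *Eif2ak2* (-1.41, adjusted p = 0.0036) were lower, and *Eif2ak1* was also lower with both unplaced clusters in their second class (-0.87, adjusted p = 0.014).

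eIF1 and eIF1A keep the small subunit open while it searches for the start codon. *Eif1* was the most abundant initiation factor row, with 95335 UMIs. Its level was 1577 and 1720 scaled CPM in early, 933 and 974 in pachytene, 1177 and 1131 in round, 2483 and 2541 in *Hemgn*-led and 8229 and 8062 in elongating cells. It fell by 0.79 (edgeR, adjusted p = 3e-05) in the first step. The last step was a rise of 2.82 ± 0.13 (edgeR, adjusted p = 7.2e-13), which remained 1.68 without the TMM factor. In UMIs per cell it went from 31.9 and 31.2 in round to 55.3 and 60.7 in elongating cells, although these had the fewest initiation factor UMIs per cell. Its rise from pachytene to round cells, 0.28 (adjusted p = 0.0496), was 0.74 with DESeq2 and -0.08 with both unplaced clusters in their second class.

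*Eif1b*, its autosomal paralog, had 530 and 567 in early and 512 and 551 in pachytene cells. It fell by 3.77 ± 0.16 (edgeR, adjusted p = 7.6e-14) to 35.0 and 42.7 in round cells and rose by 3.34 ± 0.16 (adjusted p = 1.2e-12) to 413 and 378 in elongating cells. *Eif1* held 64.6% and 63.9% of the UMIs of the pair in pachytene and 97.1% and 96.4% in round cells. Such shares do not depend on any scaling factor.

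*Eif1a* is the autosomal and *Eif1ax* the X-linked gene of eIF1A, and they took opposite directions at the later steps. *Eif1a* was at 125 and 112 scaled CPM in pachytene cells and fell by 1.58 ± 0.15 (edgeR, adjusted p = 9.5e-09) in round cells, while *Eif1ax* rose by 2.72 ± 0.30 (adjusted p = 7.2e-08), from 2.0 and 1.38 to 8.45 and 14.2. In elongating cells *Eif1ax* reached 37.8 and 43.3, a further rise of 1.81 ± 0.24 (adjusted p = 2.4e-06). *Eif1a* had 23.6 and 28.9 there, lower by 0.59 (adjusted p = 0.0119), a call lost with DESeq2 and turned to 0.13 with both unplaced clusters in their second class. The X-linked gene made up 1.58% and 1.22% of the UMIs of the pair in pachytene cells and 61.5% and 60% in elongating cells. The rise of *Eif1a* in pachytene against early cells, 0.49 (adjusted p = 0.0114), became -0.04 with both unplaced clusters in their best class.

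eIF3, the large complex that binds the small subunit and holds the other factors on it, has 14 genes in the matrix, and all were tested. Its genes had the smallest median range of the 10 groups, with a median of 2.74-fold between the highest and the lowest class of a gene and a range from 1.47-fold (*Eif3a*) to 7.43-fold (*Eif3j2*). The sum of the 14 genes went from 3567 and 3877 scaled CPM in early cells to 2122 and 2191 in round and 2793 and 2782 in elongating cells. At the step from pachytene to round cells 11 of 14 genes fell, where 46.6% of all rows were called lower, and *Eif3a*, the largest subunit, rose by 0.54 (edgeR, adjusted p = 0.00144). Under DESeq2, 7 of the 14 fell, where 23.6% of all rows did. With both unplaced clusters in their best class 7 were lower (37.0% of all rows) and 3 higher (35.2%).

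Within eIF3, the later step split the subunits. Of all rows, 27.0% were called higher at this step and 31.1% lower, or 12.9% and 55.5% without the TMM factor. *Eif3f*, *Eif3g*, *Eif3h*, *Eif3j1*, *Eif3j2* and *Eif3k* were higher in elongating than in round cells and *Eif3c*, *Eif3d*, *Eif3e* and *Eif3m* were lower, where without the TMM factor only *Eif3j1* was higher and 11 were lower, among them *Eif3f* (-0.35) and *Eif3h* (-0.38). *Eif3d*, the subunit that can itself bind the mRNA cap, fell by 1.31 ± 0.17 (edgeR, adjusted p = 1.8e-06), from 60.7 and 63.0 to 26.2 and 23.7 scaled CPM. *Eif3m* fell by 1.13 ± 0.15 (adjusted p = 2.5e-06). *Eif3g*, the most abundant subunit with 24997 UMIs, rose by 0.53 (adjusted p = 0.00121) after scaling, which turned to -0.61 without the factor. *Eif3b*, part of the core of the complex, was the only subunit called higher in the first step, from 135 and 107 to 289 and 262 (1.2 ± 0.13, adjusted p = 3.5e-07).

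*Eif3j1* and *Eif3j2* encode the loosely bound subunit eIF3j. *Eif3j1* had 50.9 and 52.3 scaled CPM in round and 349 and 400 in *Hemgn*-led cells, the highest level of the 6 classes, and 222 and 173 in elongating cells (rise over round cells of 1.94 ± 0.16, edgeR, adjusted p = 1.6e-09). *Eif3j2* was also highest in the *Hemgn*-led cluster, with 22.4 and 25.9, and rose by 1.86 ± 0.36 (adjusted p = 0.00015) from round to elongating cells. With both unplaced clusters in their best class the rises were 0.50 for *Eif3j1* and 0.46 for *Eif3j2*, the latter not called (adjusted p = 0.24). Without the TMM factor that of *Eif3j2* was 0.73 and not called (adjusted p = 0.077). The end of the *Eif3j2* mRNA has a near-identical stretch in a transcript of *Eif3j1*, whereas no such copy of the *Eif3j1* end was found. *Eif3j1* held 92.2% to 97.1% of the UMIs of the pair in all 12 sums, so the counts of *Eif3j2* are uncertain.

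The largest rises in elongating cells were those of *Eif4e3*, *Eif4h*, *Eif4e* and *Eif4a2*, of the cap-binding and helicase groups, and all 4 calls held without the TMM factor. With both unplaced clusters in their best class the rises were 2.42, 3.34, 2.72 and 2.29, and those of *Eif1* (2.38) and *Eif1b* (2.31) were above the last of them. *Eif4e*, the cap-binding protein whose amount limits initiation in many cells, was at 125 and 132 scaled CPM in round cells, 1031 in both mice in the *Hemgn*-led cluster and 2542 and 2400 in elongating cells. The rise over round cells was 4.26 ± 0.14 (edgeR, adjusted p = 7e-15), and 3.13 without the TMM factor. In UMIs per cell it went from 3.39 and 3.63 over 22.0 and 23.1 to 17.1 and 18.1. The earlier fall of *Eif4e* from pachytene to round cells, 0.50 (adjusted p = 0.00103), was lost with DESeq2 (log2 change -0.04) and became a rise of 1.32 with both unplaced clusters in their best class.

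*Eif4e2*, a cap-binding homologue linked to repression, varied by 1.54-fold, between a mean of 68.8 in round and 106 in elongating cells. Its rise of 0.63 (edgeR, adjusted p = 0.00048) at this step turned to -0.51 without the TMM factor. *Eif4e3*, the third homologue, was low, and went from 1.38 and 0.420 in round to 31.5 and 30.0 in elongating cells (5.18 ± 0.38, adjusted p = 5e-10), on 10 UMIs in the former and 112 in the latter. *Eif4e* made up 63.7% and 66.6% of the UMIs of *Eif4e* and *Eif4e2* in round cells and 95.7% and 96.1% in elongating cells.

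Among the repressors of eIF4E, *Eif4ebp2* was higher in spermatocytes and *Eif4ebp1* in spermatids. *Eif4ebp2* was at 16.7 and 25.9 scaled CPM in early and 8.99 and 12.5 in pachytene cells, and fell by 2.09 ± 0.37 (edgeR, adjusted p = 4.3e-05) in round cells. *Eif4ebp1* had 0.999 and 0.229 in pachytene cells, 16.1 and 17.5 in round and 57.2 and 39.3 in elongating cells. It rose from pachytene to round and from round to elongating cells, by 4.61 ± 0.35 (adjusted p = 3.5e-10) and 1.52 ± 0.24 (adjusted p = 1.8e-05), the second of which was 0.38 and not called without the TMM factor. *Eif4ebp1* held 10.0% and 1.80% of the UMIs of the pair in pachytene cells, 46.2% and 44.7% in the *Ssxb1*-led cluster and 95.3% and 82.2% in round cells. Set against their target, 98.0% and 97.7% of the UMIs of *Eif4e* and *Eif4ebp1* were *Eif4e* in the *Ssxb1*-led cluster, 88.6% and 88.3% in round cells and 97.8% and 98.4% in elongating cells. The share of *Eif4ebp1* in this pair was highest in round cells, but the pair leaves out *Eif4ebp2*, the repressor that was higher in spermatocytes.

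The scaffold eIF4G is encoded by *Eif4g1* (chr16:20668313-20692884, plus strand) and *Eif4g3* (chr4:137993022-138208508, plus strand). The stretches around a RefSeq start of *Eif4g1* and of *Eif4g3* are shown since these paralogs took different courses. Both stretches lie inside the gene spans just given, so the upstream end of each span is not shown. Capitals again mark GC boxes, and both stretches are read from the plus strand.
Eif4g1, chr16:20672477-20672756: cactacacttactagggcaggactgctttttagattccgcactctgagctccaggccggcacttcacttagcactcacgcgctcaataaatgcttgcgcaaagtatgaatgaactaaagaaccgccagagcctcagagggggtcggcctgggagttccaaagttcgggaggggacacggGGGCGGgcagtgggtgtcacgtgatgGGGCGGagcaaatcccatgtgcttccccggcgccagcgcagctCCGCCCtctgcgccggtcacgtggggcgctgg
Eif4g3, chr4:137993205-137993484: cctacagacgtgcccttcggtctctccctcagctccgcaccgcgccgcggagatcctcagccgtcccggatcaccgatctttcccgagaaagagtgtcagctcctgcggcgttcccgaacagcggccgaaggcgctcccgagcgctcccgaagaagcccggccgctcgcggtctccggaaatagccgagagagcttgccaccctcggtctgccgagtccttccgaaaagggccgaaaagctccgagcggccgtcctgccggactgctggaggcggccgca
The stretch of *Eif4g1* held 3 GC boxes and that of *Eif4g3*, for which RefSeq lists 2 starts, held 0, which says only that these letters were not in this window.

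*Eif4g1* was at 35.8 and 24.4 scaled CPM in early cells and fell by 2.74 ± 0.24 (edgeR, adjusted p = 1.4e-08) to 4.24 and 4.36 in pachytene cells. It rose by 4.25 ± 0.19 (adjusted p = 1.4e-13) to 73.9 and 90.2 in round cells. In elongating cells it had a mean of 202, higher by 1.29 ± 0.15 (adjusted p = 4.7e-07), a difference that was 0.16 and not called without the TMM factor. *Eif4g3* was at a mean of 181 in early, 143 in pachytene, 121 in round and 64.2 in elongating cells, and only the last of these steps passed the threshold (-0.92 ± 0.17, adjusted p = 8.8e-05). With the mouse as a block it was also lower at the first (-0.32, adjusted p = 0.0081) and the second step (-0.25, adjusted p = 0.017). The share of *Eif4g1* in the UMIs of both genes was 16.5% and 11.9% in early cells, 2.85% and 2.98% in pachytene cells, 38.8% and 41.9% in round cells and 80.2% and 72.0% in elongating cells. *Eif4g2*, which lacks the eIF4E-binding part and serves cap-independent initiation, was at a mean of 256 in early cells and fell at the first step by 0.46 (adjusted p = 0.00442) and at the second by 0.68 (adjusted p = 4.8e-05), calls that were lost with TMM factors from all rows and with DESeq2, respectively.

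The helicase eIF4A unwinds the start of the mRNA, and *Eif4a1* and *Eif4a2* encode closely related forms of it. In early cells there were 173 and 124 scaled CPM for *Eif4a1* and 187 and 161 for *Eif4a2*. Both fell in pachytene cells, *Eif4a1* by 1.39 ± 0.16 (edgeR, adjusted p = 4.9e-07) and *Eif4a2* by 1.73 ± 0.13 (adjusted p = 4.1e-09). They parted afterwards. *Eif4a2* reached its lowest level, 13.0 and 11.4, in the *Ssxb1*-led cluster, had 27.1 and 23.8 in round cells and rose by 3.90 ± 0.15 (adjusted p = 3.4e-14) to 393 and 362 in elongating cells, whereas *Eif4a1* had 41.7 and 33.9 in round and 42 and 36.4 in elongating cells. The share of *Eif4a2* was 20.3% and 18.9% in the *Ssxb1*-led cluster and 90.4% and 90.9% in elongating cells. The fall of *Eif4a2* from pachytene to round cells, 1.04 (adjusted p = 1.4e-06), became a rise of 1.34 with both unplaced clusters in their best class.

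The helicase cofactors differed in their timing. *Eif4h* was at 53.1 and 65.8 scaled CPM in round cells, 325 and 472 in the *Hemgn*-led cluster and 1212 and 1858 in elongating cells, a rise over round cells of 4.68 ± 0.21 (edgeR, adjusted p = 4.2e-13). The level in mouse 2 was 1.53 times that of mouse 1 in that last class, far less than the rise within each mouse (22.8-fold and 28.2-fold). Its fall from pachytene to round cells (0.94, adjusted p = 0.00018) was lost with DESeq2 and became a rise of 0.90 with both unplaced clusters in their best class. *Eif4b* rose earlier, from 23.1 and 25.9 in pachytene to 81.8 and 99.9 in round cells (1.89 ± 0.17, adjusted p = 3.4e-09), and its later difference of 0.17 was not called. That later difference was called lower without the TMM factor (-0.96, adjusted p = 4.4e-05). It was called higher with both unplaced clusters in their second class (0.79, adjusted p = 0.00028). *Eif4a3*, a related helicase of the exon junction complex, fell by 1.83 (adjusted p = 1.2e-09) at the step to round cells.

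**Figure D4:**
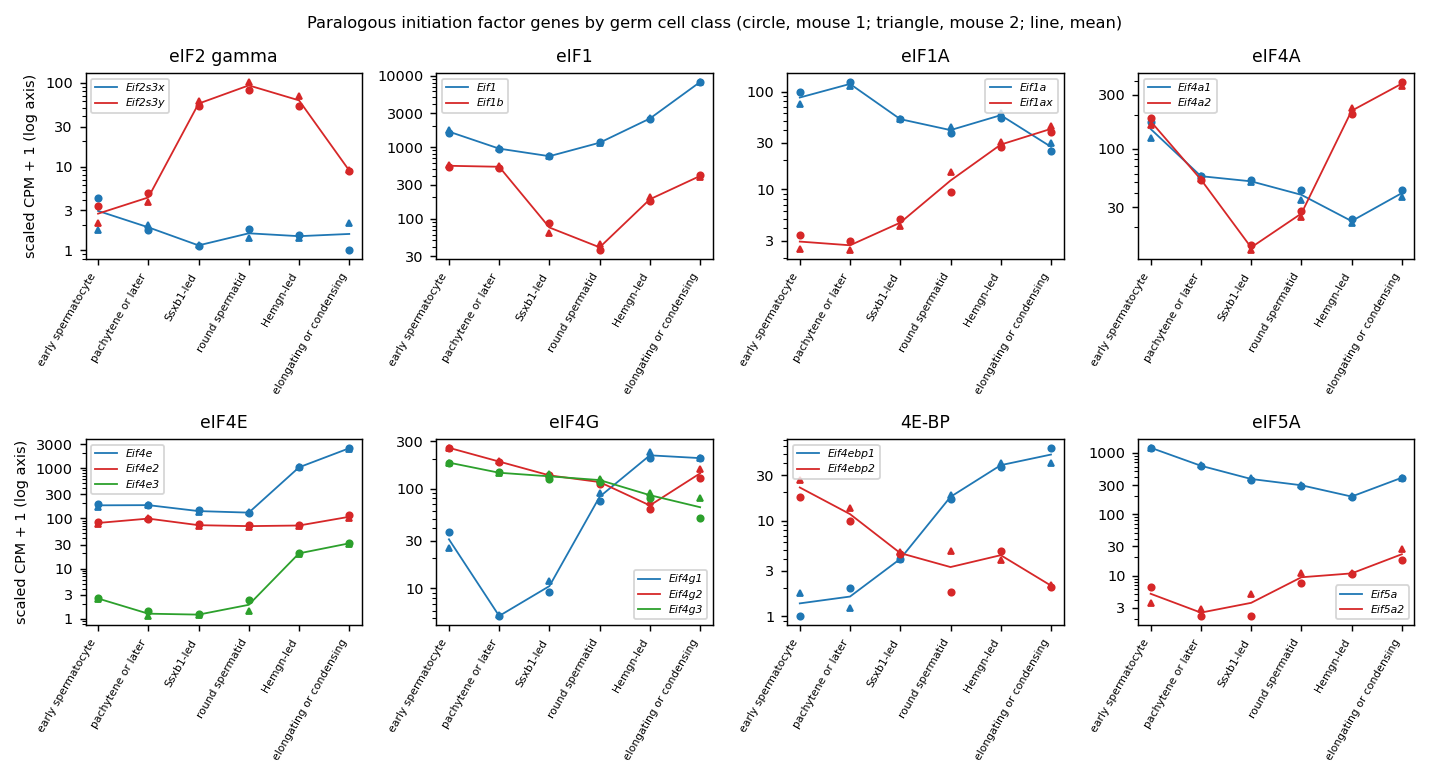
Scaled CPM + 1 (log axis) of paralogous initiation factor genes in 6 germ cell classes, with a circle for mouse 1, a triangle for mouse 2 and a line through their mean. *Eif2s3y*, *Eif4g1* and *Eif4ebp1* rose from pachytene to round cells, while *Eif4e*, *Eif4a2*, *Eif1* and *Eif4e3* rose after the round class, *Eif4e* from 125 and 132 to 2542 and 2400.

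*Eif5b*, the GTPase that joins the ribosomal subunits, was at 121 and 114 scaled CPM in pachytene cells, 439 and 468 in the *Ssxb1*-led cluster, 612 and 581 in round and 39.3 and 41.0 in elongating cells. It rose by 2.35 ± 0.13 (edgeR, adjusted p = 2e-12) and then fell by 3.89 ± 0.15 (adjusted p = 5.2e-14), the largest fall of any initiation factor gene at that step. The change was -1.08 with both unplaced clusters in their second class, where those of *Eif2a* (-1.97), *Eif2s2* (-1.34) and *Eif4a3* (-1.25) were larger. In UMIs per cell the fall was from 16.5 and 16.0 to 0.264 and 0.309. Its lower level in pachytene than in early cells (-1.12, adjusted p = 6.1e-07) turned to 0.07 with both unplaced clusters in their best class. *Eif6* fell from 78.7 and 83.4 in pachytene to 12.8 and 11.1 in round cells (-2.77 ± 0.18, adjusted p = 3e-11).

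*Eif5*, which activates the GTPase of eIF2, was one of the abundant rows, with 32608 UMIs. It was highest in early cells at 825 and 820 scaled CPM and again in elongating cells at 738 and 860, with 333 and 400 in round cells between them. Its late rise of 1.12 (edgeR, adjusted p = 1.4e-06) was -0.01 without the TMM factor. *Eif5a*, which helps ribosomes past stretches of proline, fell from 1222 and 1213 in early to 611 and 626 in pachytene and 291 and 303 in round cells, with log2 changes of -0.98 (adjusted p = 7.5e-07) and -1.06 (adjusted p = 6.8e-08). The 0.41 by which it was higher in elongating cells (adjusted p = 0.00521) turned to -0.73 without the factor and to -0.01 with both unplaced clusters in their second class.

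*Eif5a2*, the tissue-restricted paralog of *Eif5a*, rose from 1.17 and 1.84 in pachytene to 6.68 and 10.2 in round cells (2.54 ± 0.42, edgeR, adjusted p = 1.7e-05). It was 1.53 times higher in mouse 2 in the round class, the only class where it had 100 UMIs. It made up 0.190% and 0.293% of the UMIs of the pair in pachytene cells and 4.07% and 6.21% in elongating cells. *Eif4ebp2* was the third of the genes with the largest ratio between mice, 1.39 times higher in mouse 2 in pachytene cells.

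Of 40 partner genes of translation with a row (other initiation and recycling factors, kinases and phosphatases of initiation, elongation and release factors), 33 were tested. In the first comparison 3 were higher (9.09%, against 19.3% of all rows) and 19 lower (57.6% against 32.4%). In the second 9 were higher (27.3% against 33.7%) and 17 lower (51.5% against 46.6%). In the third 16 were higher (48.5% against 27.0%) and 6 lower (18.2% against 31.1%). Their medians were -0.66, -0.74 and 0.68, beside -0.28, -0.45 and -0.15 for all rows, with no test of the list. These counts and medians are from the main setting alone and were not recomputed under the alternatives. Without the TMM factor the median of all rows in the third comparison was -1.26. How many of the 16 would stay higher there was not tested. Among them *Paip2b*, which restrains the poly-A binding protein, rose by 4.18 (edgeR, adjusted p = 2.2e-13) and *Mtif3*, a mitochondrial initiation factor, fell by 4.37 (adjusted p = 1.3e-11) between pachytene and round cells. *Eef2k*, the kinase that inhibits elongation factor eEF2, fell from 7.47 and 7.71 scaled CPM in round to 0.524 and 0 in elongating cells (adjusted p = 6.3e-05), too few counts there for a fold. From early to pachytene cells *Paip2b* fell by 3.33 (adjusted p = 7.4e-10).

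Reads shared by near-identical mRNA ends can be counted for neither gene. Of 55 initiation factor genes with a transcript in the annotation, 12 had a near-identical stretch of their end in a transcript of another gene. For *Eif1*, 6 other genes held such a stretch and together received 1760 UMIs, of which 1554 were on *Emd*. *Gm9892*, which holds such a stretch of *Eif2s2*, received 114. These are all UMIs of the other genes, and how many came from the shared stretch was not tested. For these genes the levels are uncertain by the reads they share.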

How the data were processed

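Libraries of 2 mice were made with droplet 3' chemistry. Per the labels and methods, the authors ran bcl2fastq 2.17.1.14 and Cell Ranger 2.0.0 on a repeat-masked GRCm38 genome with Ensembl genes and added repeats, and aggregated the libraries to equal depth by discarding reads. The deposited values are raw UMI counts per row and cell (7114 to 154431 UMIs per cell), and barcodes name the mouse.

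Counts were scaled to the median cell, log-transformed and clustered by K-means (K = 9, 10 principal components, scikit-learn 1.9.0) without the initiation factor rows. Clusters were named from marker lists, and those whose best scores differed by under 0.05 were left unplaced, a rule set after the clusters were seen. Doublets called by scrublet were kept. UMIs were summed per mouse and class and tested with edgeR 4.0.16 (quasi-likelihood test, filterByExpr, Benjamini-Hochberg over 14144 rows, adjusted p under 0.05). The TMM factors came from 3451 rows with a mean CPM of at least 50, a change from the planned default made after simulated data showed bias between sums of unequal depth. In the simulation, 183, 198 and 187 of 200 rows changed 2-fold were recovered, with 10, 9 and 7 false calls. There the classes compared were alike apart from these rows, which had enough counts and changed equally often up and down, at a fixed spread. In the data far more rows differed and the make-up of elongating cells was shifted. How many calls are false under such a shift, and whether the scaling suits it, was not tested. The SE of a log2 fold change is its size divided by the square root of the F statistic. Alternatives included DESeq2 1.42.0, other scaling, no filter, thinning, K = 10 and leaving out sums. Sums with the same mouse number come from 1 animal, and their deviations correlated between 0.0198 and 0.226. Intervals cover counting error only. Promoter stretches are from RefSeq (GRCm38.p6).

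The members and gene lists were chosen with earlier results of these data known. Genes were named by a rule: the 5 largest rises and falls per comparison with at least 100 UMIs and the same direction in both mice, the paralog sets, the 5 genes with the highest CPM over all cells and the 3 with the largest CPM ratio between the mice. Partner genes were named for the 3 largest changes after that of *Rps6kb2*. That gene had 25 UMIs in the 6 classes and changed by -5.16 from early to pachytene cells (edgeR, adjusted p = 1.2e-05). Others named to complete a group, such as *Eif2b2* and *Eif4b*, were chosen after their values were seen.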

Additional observations from a re-analysis of the deposited data

Results flagged for a closer look

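The pseudogene rows were outside the comparisons and carried signal above 3 counts. Of 7 such rows, 5 had UMIs, 1015 in all. *Eif1-ps1* had 655 UMIs, *Eif3s6-ps1* had 342, *Eif4a-ps4* had 12 and *Eif5al3-ps* had 4. The other 3 cell types were too few for any comparison. Initiation factor genes took 1.39% of the UMIs in spermatogonium-like cells (95% exact Poisson interval 1.30 to 1.48), 0.937% in Sertoli-like cells (0.872 to 1) and 0.625% in Leydig-like cells (0.558 to 0.698). These intervals cover counting error only.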

How the results depend on the processing

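Of 2545 repeats of the 102 calls under the alternatives, 2411 were counted as kept, 116 kept direction but not the call and 18 reversed. Among the 2411 are 102 and 101 ratios within a single mouse, which were judged by direction only and have no call. A further 102 come from a setting identical to the main one. Another 102 come from K = 10, which was nearly identical, with 163 early cells against 164 and the other compared classes of the same size. The total therefore overstates how often calls were kept. With the replicate block (the mouse as a term) all 102 calls held, and the counts were 6 higher and 24 lower, 10 and 37, and 23 and 11 in the 3 comparisons. The shares of all rows in that setting were 21.0% higher and 34.7% lower, 34.5% and 48.6%, and 28.1% and 32.4%. In the first comparison the 3 higher genes became 9 (25.5% of all rows) and the 21 lower genes 13 (24.5%) with TMM factors from all rows. With the unplaced clusters in their second class 5 were higher (19.9% of all rows). In the second, 15 were higher (35.2% of all rows) with those clusters in their best class, and 23 lower (23.6%) with DESeq2. In the third, only the total count gave 8 higher (12.9% of all rows) and 33 lower (55.5%). This follows from the construction of that setting, which shifts the log2 fold changes of all rows by a median of -1.13. Leaving out 1 sum at a time gave 2 to 4 higher and 13 to 25 lower, 8 to 10 and 34 to 38, and 19 to 24 and 9 to 12, the 13 being without early spermatocyte-like cells of mouse 2. Reversed with the unplaced clusters in their best class were *Eif1a* (-0.04) and *Eif5b* (0.07) in the first comparison and *Eif4a2* (1.34), *Eif4h* (0.90) and *Eif4e* (1.32) in the second. With the second class, *Eif1* was at -0.08 in the second comparison and *Eif1a* at 0.13 and *Eif5a* at -0.01 in the third. Without a scaling factor, *Eif5* (-0.01), *Eif5a* (-0.73), *Eif3g* (-0.61), *Eif4e2* (-0.51), *Eif2b4* (-0.37), *Eif3f* (-0.35), *Eif3h* (-0.38) and *Eif4enif1* (-0.46) reversed in the third. With DESeq2, *Eif3c* (0.11) and *Eif3h* (0.04) reversed in the second. The cause was not tested for the clusters. Of 24 recomputed shares of UMIs, 2 moved beyond the spread between mice. The setting with the largest cluster of each class was identical to the main one. TMM scaling by all rows, the DESeq2 method and the choices on unplaced clusters were compared with 2 mice only, and genes under 100 UMIs have few counts per sum.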
